A study of Mus musculus with 12 samples.

Results

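Internal fragments of nuclear tRNAs are short RNAs that hold neither end of the mature tRNA. Those described here began at positions 3 to 30, counted from the first base of the mature tRNA, so that most began before the anticodon, and they ended at least 3 nt before the 3′ end. They were chosen by position alone, from the first mature nuclear tRNA under which each sequence was listed, among sequences of the subtypes Other and tRF-2. No level or difference between groups was used. They numbered 16506 of 87699 distinct sequences (18.8%) and 87787 of 1705883 tRNA reads (5.15%). Sequences of the same amino acid, start and end were summed into 4428 members, written as the amino acid with its start and end (Gly 14-27). Of these members, 565 had a mean of at least 20 CPM (reads scaled to a common library total) over the libraries and were tested, and they held 80.9% of the reads. The other 3863 members were not tested, and 3350 of all members had under 10 reads. At the threshold, 27 members lay between a mean CPM of 19 and 20 and 20 members between 20 and 21. The label of a start before the anticodon held for nearly all of them. Only 34 sequences with 60 reads began at or past the first anticodon base, which lies at 26 to 36 in the 278 mature nuclear tRNAs.

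The livers came from male B6D2F1/Crl mice aged 8 to 12 weeks by the sample labels and 9 to 12 weeks by the treatment protocol, and were either wild type (WT) or knocked out for NSun2 (NS-KO) by CRISPR with a pair of guide RNAs. NSun2 places 5-methylcytosine on tRNAs. Mice were given corn oil alone (D0), 1 intraperitoneal dose of 40% CCl4 in corn oil at 2 ml/kg and examined on day 3 (D3), or repeated doses up to day 27 (D27). CCl4 is turned into a toxic product by liver cells and injures them. Each of the 6 groups had 2 libraries, of RNA selected at 14 to 40 nt and treated before ligation to open 3′ ends, add 5′ phosphates and remove methyl groups that stop reverse transcription. Small RNA of this kind holds no NSun2 mRNA and no marker genes, so neither the deletion nor the tissue could be checked in these data. The paper describes the 2 libraries of a group as independent biological replicates. Nothing in the labels says which mouse gave which library, so p-values measure only the spread between these libraries.

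A tRNA folds into an acceptor stem, a D arm, an anticodon arm, a variable loop and a T arm. The D arm, named for its dihydrouridines, carries a conserved pair of guanines in its loop that docks with the T loop to give the tRNA its L shape. Nucleases such as angiogenin cut exposed loops, above all the anticodon loop, and the pieces are known as tRNA-derived small RNAs (tsRNAs). In the liver and elsewhere, long 5′ pieces of Gly and Glu tRNAs are the best known of them, and tRNAs that lack the methyl groups made by NSun2 are cut by angiogenin more readily.

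The sequences below are the most abundant ones of the members with the most reads, shown because these members had the highest mean CPM. Capitals mark bases of the anticodon loop, and a fragment without capitals ended before that loop.
Arg 16-31: tggataaggcactggc
Glu 16-31: tggttaggattcggcg
Glu 16-30: tggttaggattcggc
Glu 16-32: tcggtagagcatgagaC
Ala 16-30: tggttaggattcggt
Gly 16-31: tggtagaattctcgcC
Arg 15-31: atggataaggcactggc
Arg 15-28: atggataaggcatc
Glu 14-32: agtcggtagagcatgagaC
Ala 3-16: gggattagctcaaa
Glu 16-42: tggttaggattcggcgCTCTCACcgct
The members with the lowest adjusted p for a lower level in NS-KO livers had the following main sequences.
Gly 14-27: agtggtagaattct
His 4-31: gtgatcgtatagtggttagtactctgcg
Gly 16-48: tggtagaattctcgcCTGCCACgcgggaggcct
Gly 8-24: tggttcagtggtagaat
The members with the lowest adjusted p for a higher level in NS-KO livers had these main sequences, together with Met 16-31, which had more reads.
Gly 13-47: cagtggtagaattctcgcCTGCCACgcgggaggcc
Glu 13-42: tagtggttaggattcggcgCTCTCACcgct
Tyr 13-36: gagtaagcattagaCTGTAAAtct
Tyr 12-30: tgagtaagcattagaCTGT
Met 16-31: cggaagcgtgctgggC
Whole mature tRNAs, with the CCA end and with the span of a member in capitals, show where these pieces lie. Gly-CCC-5-1 is shown with Gly 14-27, His-GTG-2-1 with His 4-31 and Tyr-GTA-6-1 with Tyr 13-36.
Gly-CCC-5-1: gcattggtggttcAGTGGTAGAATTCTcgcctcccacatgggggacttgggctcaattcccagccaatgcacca
His-GTG-2-1: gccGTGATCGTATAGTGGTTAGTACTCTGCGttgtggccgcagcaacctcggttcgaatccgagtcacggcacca
Tyr-GTA-6-1: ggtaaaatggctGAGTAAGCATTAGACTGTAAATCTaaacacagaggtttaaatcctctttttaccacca
His-GTG-2-1 lies at chr2:122375494-122375565 on the RefSeq gene n-THgtg4 (GRCm38, strand not given in the table used here). Met 16-31 belongs to the initiator tRNA iMet-CAT-1-1 at chr3:90475860-90475931 on n-TMcat11, and Arg 16-31 to Arg-CCT-1-1 at chr11:115412981-115413053 on n-TRcct5. These positions are those of the tRNA genes themselves, and whether a gene of another kind overlaps them was not examined.

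A member is named by the first tRNA listed, and this name is uncertain where tRNAs share a stretch. Of the reads, 12.0% were listed under more than 1 amino acid and 27.6% under more than 1 combination of amino acid and anticodon. Groups and lists by anticodon below follow the first listed tRNA. The main sequence of Glu 16-32 and Glu 14-32 lies in Glu-CTC-3-1, and 51.6% and 81.9% of the reads of these members were also listed under other amino acids. The main sequence of Ala 16-30 differs from that of Glu 16-30 only by C30T. The main sequence of Gln 26-40 lies in the hairpin of Mir378c and is not shown, and sequences lying in miRNA hairpins held 862 reads of the class. Of these, 847 reads lay in Mir378c alone, and 0 of the 847 matched a tRNA perfectly. Gln 26-40 was kept in the Gln counts and shares below. Of the 2503 Tyr reads, 77.2% were first listed under Tyr-GTA-6-1, which has 70 nt and its anticodon at 29 to 31, where Tyr-GTA-1-1 has 76 nt and its anticodon at 34 to 36. A mitochondrial tyrosine tRNA was not among the 21 mitochondrial tRNAs analysed here, so a mitochondrial source of these reads was not tested.

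Starts gathered in the D loop, and ends gathered just before and inside the anticodon loop. Position 16 alone was the start of 27.4% of the reads, positions 13 to 16 of 55.8%, and the D loop as a whole of 59.3%. Ends at 30 to 32 made up 45.3% of the reads, with 21.5% at position 31. By arm, 47.2% of reads ended before the anticodon loop, 31.47% in it and 21.31% past it.

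Fragments that began at 16 mostly began 1 base before the conserved guanine pair. Among reads with this start, 82.7% had GG as the next letters of the tRNA (only this strand was searched), and GG follows position 16 in 185 of the 278 mature nuclear tRNAs (66.6%). At position 15 the share was 0.549% of reads and 12.95% of tRNAs. Exact matches to the listed tRNA made up 59.3% of reads. A mismatch at the last base made up 28.5%, and in 14.96% of all reads that last base was read as T. In Glu 16-42 the main sequence carries C42T at its last base, counted from the first base of the tRNA.

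**Figure D1:**
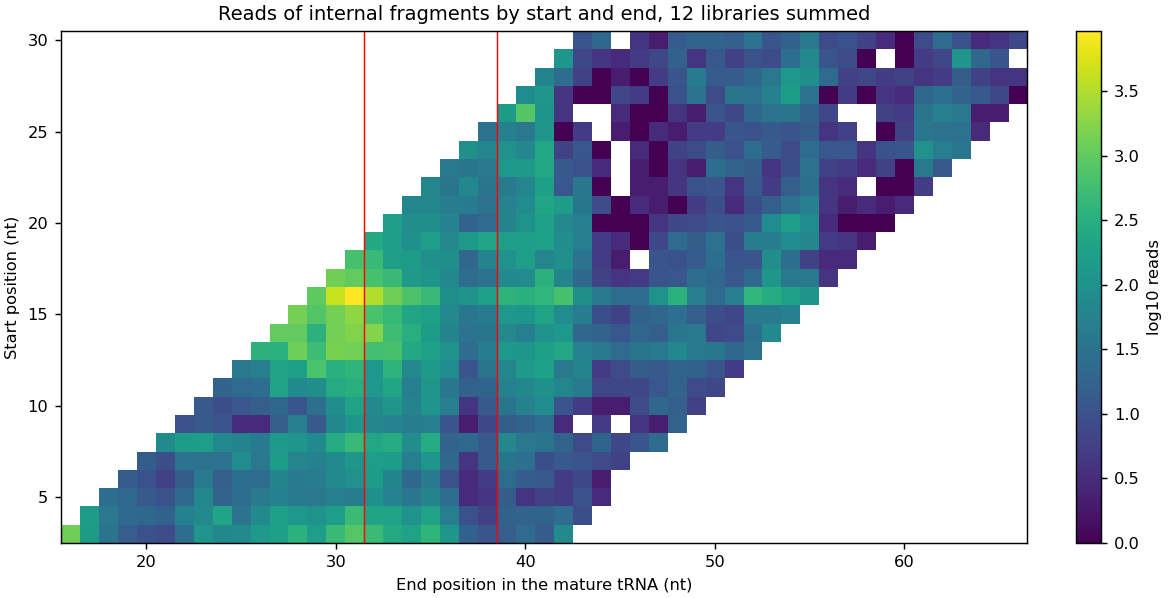
Reads of internal fragments of nuclear tRNAs by start (vertical axis, nt) and end (horizontal axis, nt) in the mature tRNA, summed over the 12 libraries, with colour as log10 reads. Red lines bound the anticodon loop of a tRNA whose anticodon lies at 34 to 36. The brightest area lies at starts of 13 to 16, which held 55.8% of the reads, and ends of 30 to 32, which held 45.3%.

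By amino acid of the first listed tRNA, Glu held 24387 reads, Gly 12149, Arg 10691, Lys 9150, Gln 8115 and His 5303. Reads also listed under other amino acids made up 34.8% for Leu, 34.3% for Glu, 31.35% for Ala and 18.1% for Ile. For each other amino acid this share was 4.11% or less. Ala, Tyr, Pro, Met and Leu held between 2295 and 3592 reads each. The Met reads came from the initiator tRNA for 2341 of 2433. Thr, SeC, Phe and Trp held between 134 and 265 reads each. The spread of ends differed between amino acids. In Gln most WT reads ended past the anticodon loop (59.5% ± 9.502, SD, n = 6), whereas in Ala 0.685% ± 0.790 did so.

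The libraries held 46937 to 275568 tRNA reads. Fragments from the 5′ end made up 43.6% to 82.7% of them in WT and 22.8% to 44.1% in NS-KO livers, and fragments of mature mitochondrial tRNAs 4.81% to 12.0% and 20.4% to 50.1%. Levels below are therefore given as scaled CPM, that is CPM after scaling by the trimmed mean of M values (TMM), and each difference was also read under 2 other scalings. By library size alone the median log2 fold change over all 2333 position sums rose from 0.39 to 0.95, and per reads outside 5′ fragments it fell to 0.11. For the tested members the medians were 0.22, 0.80 and -0.04. WT D3 replicate 1 stood apart from the other WT libraries, with the fewest reads and 43.6% of them in 5′ fragments.

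Internal fragments took up a larger share of tRNA reads in NS-KO livers, except at D3. In WT livers they made up 2.80% and 3.38% (D0), 8.65% and 4.32% (D3) and 4.58% and 2.74% (D27). In NS-KO livers the shares were 8.83% and 7.94% (D0), 6.33% and 5.27% (D3) and 11.2% and 15.3% (D27). The libraries of the genotypes did not overlap at D0 and D27 but did at D3. Counting error is small beside this spread, since the widest 95% Wilson interval of a library, that of NS-KO D27 replicate 2, ran from 14.99% to 15.57%.

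On average internal fragments made up 4.41% ± 2.21 of WT reads and 9.14% ± 3.65 of NS-KO reads (SD, n = 6 each), a difference of 4.73 percentage points (exact permutation of genotype within days, two-sided, p = 0.0370). The daily differences were 5.29 (D0), -0.69 (D3) and 9.59 (D27). With 216 arrangements this test cannot give a p below 0.00926, and within a single day 2 libraries against 2 cannot reach 0.05. Of reads outside 5′ fragments the difference was -1.57 percentage points (exact permutation p = 0.398). That total includes mature mitochondrial tRNA fragments, which made up 4.81% to 12.0% of all tRNA reads in WT and 20.4% to 50.1% in NS-KO libraries. What the 5′ and mitochondrial fragments each contribute to the difference in share was not tested. Leaving out a single library left differences of 4.01 to 5.45 with p up to 0.0926, the highest without WT D3 replicate 2. The call was lost in 7 of 12 cases, without either WT D0 replicate, WT D3 replicate 2, either WT D27 replicate or either NS-KO D0 replicate.

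Ratios within a library do not depend on the scaling between libraries. The log2 ratio of these fragments to internal fragments that began at 31 or later was 1.15 to 1.46, with a median of 1.38, in WT livers. In NS-KO livers it was 1.52 to 2.04, with a median of 1.73. The 6 libraries of each genotype did not overlap. The difference was 0.40 (exact permutation p = 0.00926, the smallest this test can give), and after adjustment over the 42 ratios computed it did not pass the threshold (adjusted p = 0.0972).

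The log2 ratio to 5′ fragments was -4.92 to -2.34 in WT and -2.80 to -0.78 in NS-KO livers, with a difference of 2.35 (exact permutation p = 0.0185, adjusted p = 0.0972). Here WT D3 replicate 1 lay among the NS-KO libraries, and without it the difference was 2.64 (adjusted p = 0.0354). Without the same library the ratio to later internal fragments also had an adjusted p of 0.0354, with a difference of 0.38. This library was singled out after seeing the data. With any other library left out (11 cases for each ratio), neither ratio passed, with exact permutation adjusted p up to 0.173 and 0.130. By amino acid, the ratio to later internal fragments was higher in NS-KO livers by 1.56 for Met and by 1.24 for Asn, each with p = 0.00926 in the same exact permutation test and the same adjusted p of 0.0972. The later internal fragments of Met were themselves lower, with a log2 fold change of -0.69 (limma adjusted p = 0.00411). Those of Asn were at -0.10 (limma adjusted p = 0.731).

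**Figure D2:**
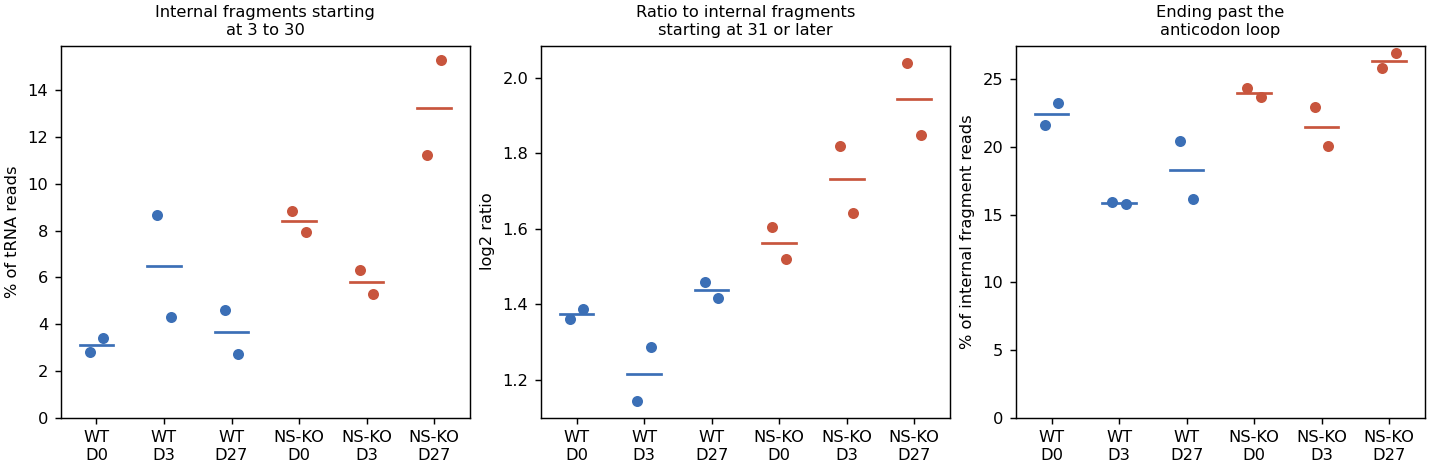
Each point is a library and each line the mean of a group of 2 libraries, for WT (blue) and NS-KO (red) at D0, D3 and D27. The left panel gives the percent of tRNA reads in internal fragments that began at 3 to 30, the middle panel their log2 ratio to internal fragments that began at 31 or later (its axis does not start at 0), and the right panel the percent of them that ended past the anticodon loop. In the middle panel all NS-KO libraries lie above all WT libraries, with a highest WT value of 1.46 and a lowest NS-KO value of 1.52.

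The fragments of NS-KO livers reached farther past the anticodon loop. The share of their reads ending past that loop was 15.8% to 23.2% in WT livers, with a median of 18.3%, and 20.04% to 26.9% in NS-KO livers, with a median of 24.01%. The genotypes overlapped across days, because WT D0 livers already lay at 21.6% and 23.2%, but within each day both NS-KO libraries lay above both WT libraries. The mean rose from 18.9% ± 3.29 to 23.97% ± 2.41 (SD, n = 6 each), a difference of 5.10 percentage points (exact permutation p = 0.00926, adjusted p = 0.0417 over 9 measures of position and length). The difference was smallest before CCl4 (1.58), with 5.62 on D3 and 8.09 on D27.

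The share ending before the loop fell from 50.2% ± 3.18 to 44.7% ± 2.89 (exact permutation p = 0.00926, adjusted p = 0.0417). Without any of 6 libraries in turn (WT D0 replicate 1, both WT D3 replicates, both NS-KO D0 replicates and NS-KO D27 replicate 2) neither share passed the adjusted threshold, with adjusted p of 0.0833 to 0.146. The share ending inside the loop differed by 0.38 points (exact permutation p = 0.769). Starts at 3 to 7, 8 to 26 and 27 to 30, the share with a mismatch, the mean length (20.1 nt in WT, 20.6 nt in NS-KO) and the share in the 10 most abundant sequences did not pass the adjusted threshold.

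Within single amino acids the ends moved in both directions, and none of the 12 amino acids with at least 1000 reads passed the adjusted threshold. In Gly, 20.2% ± 6.83 of WT reads and 30.1% ± 3.83 of NS-KO reads ended past the loop (n = 6 each, exact permutation p = 0.0370). In Glu the shares were 13.4% ± 3.50 and 20.6% ± 5.14 (exact permutation p = 0.0185). In Met they ran the other way, at 34.5% ± 5.25 and 21.3% ± 5.53 (exact permutation p = 0.00926), and in Tyr at 54.7% ± 5.95 and 36.6% ± 15.1 (exact permutation p = 0.0185).

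Of the 12 most abundant members 9 did not pass the test between genotypes. Arg 16-31, a piece of the D arm and the 5′ side of the anticodon stem of Arg-CCT, had the highest mean CPM, at 1296 to 3979 scaled CPM in WT livers (median 3210) and 2597 to 4178 in NS-KO livers (median 3306). The ranges overlapped, and its log2 fold change over days was 0.34 ± 0.21 (SE, limma adjusted p = 0.235). Glu 16-31 and Glu 16-30 had log2 fold changes of 0.51 and 0.41 (limma adjusted p of 0.103 and 0.195). Gly 16-31, Arg 15-31, Arg 15-28, Glu 14-32, Gln 26-40 and Ala 3-16 lay between -0.59 and 0.00, with adjusted p of 0.0552 (Ala 3-16) or more. Ala 3-16 passed without WT D27 replicate 2, NS-KO D0 replicate 1 or NS-KO D27 replicate 2 (adjusted p of 0.0331 to 0.0474), and Arg 15-31 passed in opposite directions under the other scalings (0.80 by library size only, -0.49 per reads outside 5′ fragments).

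Of these 12, Ala 16-30 and Glu 16-42 rose and Glu 16-32 fell. Ala 16-30 had 305 to 767 scaled CPM in WT livers (median 500) and 564 to 1424 in NS-KO livers (median 958). Within each day both NS-KO libraries lay above both WT libraries, and the log2 fold change was 0.90 ± 0.23 (SE, limma adjusted p = 0.00770). Glu 16-42 spans the whole anticodon loop and had 177 to 457 scaled CPM in WT livers (median 322) and 337 to 757 in NS-KO livers (median 503), with a log2 fold change of 0.70 ± 0.22 (limma adjusted p = 0.0244). Without WT D0 replicate 1, WT D0 replicate 2, WT D27 replicate 2 or NS-KO D0 replicate 2 its adjusted p was 0.0566 to 0.0825, and per reads outside 5′ fragments the log2 fold change was 0.27 (adjusted p = 0.359).

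Glu 16-32, which ends at the first base of the anticodon loop, had 1067 to 2610 scaled CPM in WT livers (median 1462) and 634 to 1334 in NS-KO livers (median 1064). Both NS-KO libraries lay below both WT libraries at D0 and D3, and 1 of them did at D27. The log2 fold change was -0.60 ± 0.21 (limma adjusted p = 0.0344), and it was 0.26 by library size alone (adjusted p = 0.513). Leaving out 1 library ended the call in 7 of 12 cases (WT D0 replicates 1 and 2, WT D3 replicate 1, WT D27 replicate 1, NS-KO D0 replicates 1 and 2 and NS-KO D27 replicate 1), with adjusted p of 0.0508 to 0.0988. Without sequences listed under more than 1 amino acid the log2 fold change was -0.82 (adjusted p = 0.0197).

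Over days, 54 tested members were higher and 40 lower in NS-KO livers (limma, adjusted p under 0.05), and 151 had an unadjusted p under 0.05. This balance depended on the scaling, with 246 higher and 11 lower by library size only and 21 and 83 per reads outside 5′ fragments. The median log2 fold change over all position sums moved as well, to 0.95 and 0.11. Without D3 1 was higher and 5 lower, and leaving out a single library left 26 to 78 higher, the fewest when WT D0 replicate 2 was left out and the most when NS-KO D3 replicate 2 was. Over all 2333 position sums of the table, 29.7% were higher and 7.03% lower. Of the tested members 9.56% were higher and 7.08% lower, and the difference from the table was not tested. Of the 54, all kept their sign under both other scalings, and of the 40, 39 did, all but Glu 16-32. Under all 3 scalings 21 members were called higher and 11 lower. For 13 members the 6 libraries of one genotype did not overlap those of the other, 3 higher and 10 lower. Over all position sums, the counts under other scalings, with D3 or a library left out, and of members without overlap are not given. Those counts of members therefore cannot be set against the table. Many of the higher members were rare, with 25 of the 54 under 50 reads in all libraries together, against 2 of the 40 lower ones.

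Gly fragments made up most of the lower members. Of 93 tested Gly members, 30 were lower and 12 higher, and 40 members were lower in all. Among all 2333 position sums 7.03% were lower and 29.7% higher. For Gly-CCC 19 of 55 were lower and 5 higher, for Gly-GCC 10 of 37 lower and 7 higher, and the only Gly-TCC member was lower. By end, 14 were lower and 4 higher of the 33 that ended before the anticodon loop and 10 lower and 1 higher of the 40 that ended in it. Of the 20 Gly members that ended past the loop 6 were lower and 7 higher.

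Gly 14-27, a 14-nt piece from the D loop to the anticodon stem of Gly-CCC, had the largest fall. WT livers had 965 and 788 scaled CPM (D0), 267 and 1114 (D3) and 70.9 and 470 (D27). NS-KO livers had 29.7 and 0 (D0), 67.3 and 98.2 (D3) and 69.0 and 62.2 (D27). All NS-KO libraries lay below 5 of the 6 WT libraries, and WT D27 replicate 1 lay among them.

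Over days Gly 14-27 had a log2 fold change of -2.95 ± 0.44 (SE, limma adjusted p = 5.04e-04), and it was -2.36 to -3.37 under the other scalings and -2.54 to -3.37 without a single library. It was also lower at D0 alone, by -5.00 (adjusted p = 0.00872, with 3 reads in both NS-KO libraries together, so that its size depends on the prior count), and at D3 by -2.53 (adjusted p = 0.0168). At D27 it was -1.33 (adjusted p = 0.396). Its longer neighbour Gly 14-29 had 23.6 to 233 scaled CPM in WT livers (median 141) and 0 to 46.0 in NS-KO livers (median 13.1). The log2 fold change was -2.10 ± 0.45 (limma adjusted p = 0.00306).

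Gly 8-24 and Gly 8-23, which begin just before the D arm, fell over days, while other Gly members with this start, such as Gly 8-31 (log2 fold change -0.14, limma adjusted p = 0.723), did not pass the test. Gly 8-24 had 42.3 to 112 scaled CPM in WT livers (median 72.1) and 0 to 20.7 in NS-KO livers (median 9.94), without overlap. Its log2 fold change was -1.81 ± 0.33 (limma adjusted p = 0.00132), with daily values of -1.75, -1.88 and -1.81, of which D3 alone passed the threshold (adjusted p = 0.0195). Gly 8-23 had 84.7 to 189 scaled CPM in WT livers and 11.7 to 49.5 in NS-KO livers, again without overlap, and a log2 fold change of -1.54 ± 0.32 (limma adjusted p = 0.00224).

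Gly 16-48 is a longer piece of Gly-GCC that spans the anticodon arm and ends beyond it, with C48T in its main sequence. WT livers had 243 and 254 scaled CPM (D0), 388 and 176 (D3) and 339 and 207 (D27). NS-KO livers had 79.3 and 81.9 (D0), 95.3 and 106 (D3) and 69.0 and 72.6 (D27). The lowest WT library lay above the highest NS-KO library. The log2 fold change was -1.46 ± 0.25 (limma adjusted p = 9.60e-04), and by library size alone it was -0.70 (adjusted p = 0.117).

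Gly 19-32 and Gly 3-27 fell as well, with log2 fold changes of -1.53 ± 0.31 and -1.69 ± 0.35 (limma adjusted p of 0.00214 and 0.00252). Gly 19-32 did not overlap between genotypes, at 71.3 to 147 scaled CPM in WT and 0 to 57.5 in NS-KO livers. Gly 3-27 overlapped, at 33.9 to 150 in WT and 0 to 51.8 in NS-KO livers.

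Among His fragments, those that ended just before the anticodon loop held all the lower ones. His 4-31 runs from the acceptor stem of His-GTG through its D arm and ends on the last base before the anticodon loop. WT livers had 51.6 and 76.2 scaled CPM (D0), 103 and 148 (D3) and 102 and 114 (D27). NS-KO livers had 29.7 and 23.4 (D0), 5.61 and 16.4 (D3) and 11.5 and 10.4 (D27). The genotypes did not overlap, and the log2 fold change was -1.82 ± 0.29 (SE, limma adjusted p = 6.29e-04). Of the 14 tested His members that ended at 30 or 31, 6 were lower and 0 higher over days (12 had a log2 fold change below 0), and of the 12 that ended at 33 or 34, 2 were higher and 0 lower. The 2 His members that ended past the loop were at -0.80 and -0.58 and did not pass the test. Over all ends 3 of 47 His members were higher and 6 lower, where 29.7% and 7.03% of all position sums were called.

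Of the 54 higher members, 12 were Glu and 12 Gly fragments, and 11 of the Glu ones ran past the anticodon loop. Of the 31 tested Glu members ending at 40 to 43, 10 were higher and 0 lower, and all 31 had a log2 fold change above 0, with a median of 0.72. Over all 2333 position sums 29.7% were higher, a share close to that of these members, and the median was 0.39. Of the 49 Glu members ending at 28 to 32, 1 was higher and 2 lower, with a median of 0.25. Glu 13-42 had 51.6 and 16.9 scaled CPM in WT livers before CCl4, 25.8 and 21.2 on D3 and 142 and 92.7 on D27. NS-KO livers had 69.4 and 105 (D0), 196 and 164 (D3) and 184 and 311 (D27). Within each day both NS-KO libraries lay above both WT libraries.

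Glu 13-42 had a log2 fold change of 1.45 ± 0.28 (SE, limma adjusted p = 0.00187), and at D3 alone it was 2.29 (adjusted p = 0.00165). With perfect matches only it was 0.80 (adjusted p = 0.0938). Glu 11-42, with the same end, had 5 reads in the WT libraries together and 25 in the NS-KO libraries, which did not overlap in scaled CPM (limma adjusted p = 0.00366). Fold changes of such rare members depend on the prior count and are not given.

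Of 69 tested Gln members 6 were higher and 0 lower, 5 of the 6 with ends past the anticodon loop. Lys had 1 of 62 members higher and 0 lower, with log2 fold changes from -0.78 to 1.45, and Arg 2 of 32 higher and 0 lower. Ala had 3 of 17 higher and Leu 4 of 15. Pro had 1 of 19 lower. The shares over all 2333 position sums were 29.7% higher and 7.03% lower.

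**Figure D3:**
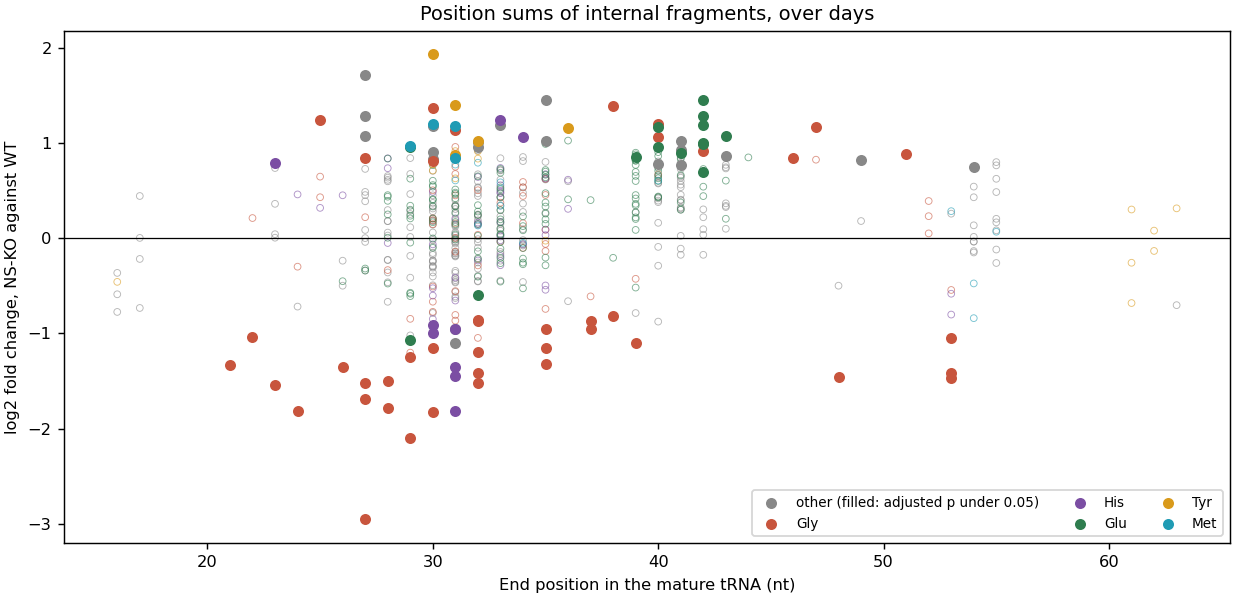
Log2 fold change over days (NS-KO against WT, vertical axis) of the 565 tested members against their end position in the mature tRNA (nt, horizontal axis). Filled points passed an adjusted p under 0.05 (54 higher, 40 lower) and open points did not. Red Gly and purple His points make up 36 of the 40 lower ones, and green Glu points ending at 40 to 43 all lie above 0.

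Met fragments came from the D arm and anticodon arm of the initiator tRNA, which starts translation. Of 16 tested Met members 4 were higher and 0 lower, no larger a share than the 29.7% higher over all position sums. Met 16-31 had 192 and 136 scaled CPM in WT livers before CCl4, 190 and 226 on D3 and 410 and 235 on D27. NS-KO livers had 347 and 351 (D0), 791 and 974 (D3) and 276 and 715 (D27). Both NS-KO libraries lay above both WT libraries at D0 and D3 and overlapped with them at D27. Its log2 fold change was 1.18 ± 0.26 (limma adjusted p = 0.00347), and 2.00 at D3 (adjusted p = 0.00243). Without D3 it was 0.76 (adjusted p = 0.255).

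Tyr fragments rose mainly at D3. Tyr 13-30 had 14.7 and 42.3 scaled CPM in WT livers before CCl4, 17.2 and 28.2 on D3 and 23.6 and 64.2 on D27. NS-KO livers had 29.7 and 23.4 (D0), 286 and 524 (D3) and 11.5 and 10.4 (D27). Only the NS-KO D3 libraries stood above the rest. The log2 fold change at D3 was 3.38 (limma adjusted p = 1.96e-04), and over days it was 0.78 (adjusted p = 0.0767). Tyr 13-36 had 19 and 28 reads in the NS-KO D3 libraries and 2 reads in the other 10 libraries together (adjusted p = 2.19e-05 at D3, 0.00206 over days).

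Tyr 12-30 was high in NS-KO livers at D0 as well as at D3, with 158 and 152 scaled CPM at D0 and 174 and 131 at D3, against 0 to 35.3 in WT livers and 23.0 and 0 in NS-KO livers at D27 (limma adjusted p = 0.00221 over days). Tyr 6-32 came from another tRNA, Tyr-GTA-1-1. It had 3 reads in the WT libraries together and 16 in the NS-KO libraries, without overlap in scaled CPM (limma adjusted p = 0.00534). Of 19 tested Tyr members 5 were higher and 0 lower, beside 29.7% higher over all position sums.

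Of the rare Gly members that rose, Gly 13-47 had 2 reads in the WT libraries together and 1 to 5 in each NS-KO library (limma adjusted p = 0.00186). Gly 10-30 had 4 reads in WT libraries together and 1 to 10 in each NS-KO library (limma adjusted p = 0.00352). Gly 10-30, Gly 11-27, Gly 12-30 and Gly 16-42 were the members higher at D27 alone, each with 4 to 10 reads in each NS-KO D27 library and 0 or 1 in each WT D27 library.

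**Figure D4:**
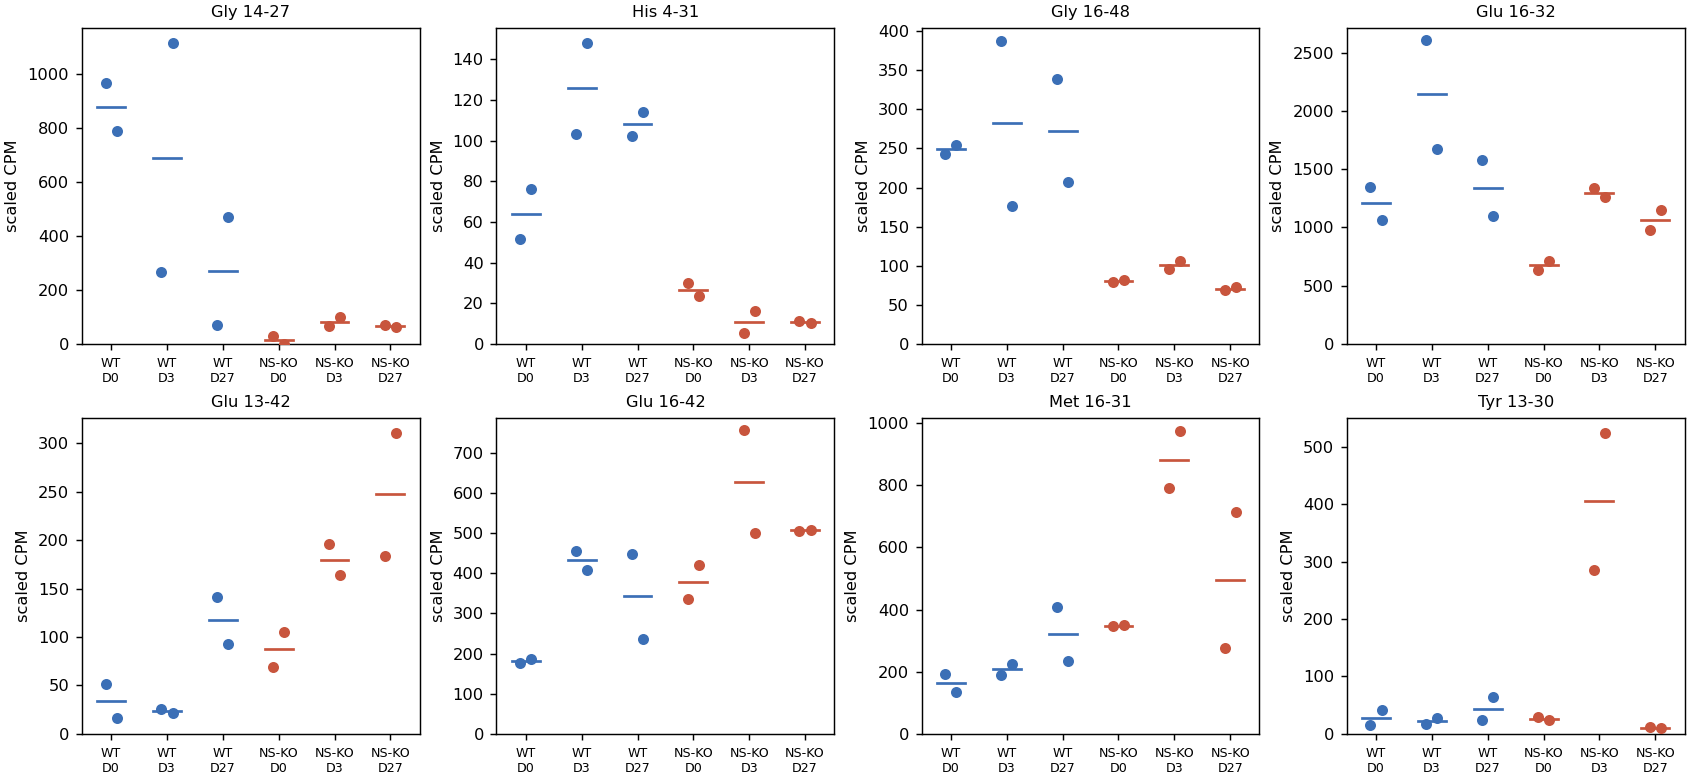
Scaled CPM (vertical axis, from 0) of 8 members in each library (points), with the mean of each group of 2 (lines), for WT (blue) and NS-KO (red) at D0, D3 and D27. Gly 14-27, His 4-31, Gly 16-48 and Glu 16-32 were lower in NS-KO livers over days, Glu 13-42, Glu 16-42 and Met 16-31 higher, and Tyr 13-30 was high only in the NS-KO D3 libraries, at 286 and 524.

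Members were also grouped by tRNA features. Over all position sums 29.7% were higher and 7.03% lower, with a median of 0.39. For targets of DNMT2, another tRNA cytosine methyltransferase (Asp-GTC, Gly-GCC and Val-AAC), 8 of 47 members were higher and 11 lower, with a median of 0.04. For tRNAs that carry queuosine at the wobble base (Asp, Asn, His and Tyr), 10 of 73 were higher and 7 lower, with a median of 0.17. For tRNAs with inosine at the wobble base 0 of 33 were higher and 1 lower, with a median of 0.05. Members of tRNAs whose genes hold introns had 7 of 21 higher and 0 lower (median 0.78), 5 of the 7 being Tyr members, and most Tyr reads were those of Tyr-GTA-6-1, whose source was not tested. Those of tRNAs with a long variable arm had 4 of 17 higher and 0 lower (median 0.44). All 4 were Leu members, 3 of them Leu-TAA, and 97.3% of Leu-TAA reads were also listed under other amino acids.

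Summed by amino acid, internal fragments rose over days for 5 of 21 amino acids and fell for 0 (limma), with 1 of the 21 below at an unadjusted p under 0.05. Over all 137 sums by class and amino acid 29.9% were higher and 10.9% lower (40.9% in either direction). The 5 were Tyr (log2 fold change 0.93 ± 0.19, SE, adjusted p = 0.00307), Asn (1.04 ± 0.24, adjusted p = 0.00411), Met (0.86 ± 0.22, adjusted p = 0.00608), Ile (0.70 ± 0.20, adjusted p = 0.0143) and Ser (0.55 ± 0.20, adjusted p = 0.0438). All 5 stayed above 0 under both other scalings, and only Tyr passed the threshold under all 3. Ser lost its call without any of 10 libraries in turn, that is in all cases but those without NS-KO D3 replicate 2 and NS-KO D27 replicate 1, with adjusted p up to 0.120, and with a replicate block (adjusted p = 0.0507). Ile lost it without WT D0 replicate 1 (adjusted p = 0.0501).

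The Asn sum, a small one of 353 reads, had 107 to 262 scaled CPM in WT livers and 229 to 518 in NS-KO livers. Within each day both NS-KO libraries lay above both WT libraries, and at D27 the log2 fold change was 1.71 (limma adjusted p = 0.0330, the only amino acid called at that day, where 0.73% of all sums were higher and 4.38% called in either direction). The Ser sum lay at 189 to 207 scaled CPM in WT and 242 to 367 in NS-KO livers, and the Met sum at 965 to 1450 and 1275 to 3681.

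Tyr was the amino acid with the largest difference at a single day. Its sum had 884 and 711 scaled CPM in WT livers before CCl4, 870 and 1051 on D3 and 1040 and 905 on D27. NS-KO livers had 1615 and 1065 (D0), 3582 and 6056 (D3) and 782 and 923 (D27). The NS-KO D3 libraries lay far above all others. At D3 the log2 fold change was 2.26 ± 0.34 (SE, limma adjusted p = 1.85e-04), and Met (1.18) and Ile (1.08) were also higher there, against 24.8% of all sums (6.57% were lower). In the libraries of NS-KO D3, fragments of mature mitochondrial tRNAs made up 30.3% and 50.1% of tRNA reads, the part of which in the Tyr result was not tested. Without D3 the log2 fold change of the Tyr sum was 0.26 (adjusted p = 0.454). Without the sequences first listed under Tyr-GTA-6-1 it was 1.07 over days (adjusted p = 0.00306) and 1.49 at D3 (adjusted p = 0.00977).

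Gly had the lowest log2 fold change of the 21 sums, at -0.45 ± 0.20 (limma adjusted p = 0.0847), and its sign turned to 0.43 by library size alone (adjusted p = 0.166). At D0, where 2.19% of all sums were lower, it was -1.19 (adjusted p = 0.0575), with 8998 and 8061 scaled CPM in WT and 4776 and 2902 in NS-KO livers, and at D27 it was 0.25 (adjusted p = 0.785). Glu, Arg, Lys and His had log2 fold changes of 0.29, 0.17, 0.09 and 0.00 (limma adjusted p of 0.280 or more). By library size only the Lys sum was at 0.96 (adjusted p = 0.00196). For all Gly tRNAs together, 5′ fragments had a log2 fold change of -2.76 (limma adjusted p = 1.28e-04) and 3′ fragments of -1.16 (adjusted p = 2.08e-04). By class, 13 of 20 sums of nuclear precursors and 1 of 19 sums of 5′ fragments were higher, and 6 of 19 sums of 5′ fragments and 8 of 20 sums of 3′ fragments were lower.

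By anticodon 10 of 46 sums of internal fragments were higher over days and 0 lower in limma (1 lower at an unadjusted p under 0.05), where 21.1% of all 256 sums were higher and 9.77% lower. They were Arg-TCT, Tyr-GTA, Asn-GTT, Met-CAT, Ala-CGC, Ser-AGA, Leu-TAA, Glu-TTC, Ile-AAT and Val-CAC, with log2 fold changes between 0.63 (Ile-AAT) and 1.15 (Leu-TAA). The names Leu-TAA and Ala-CGC are uncertain, since 97.3% and 43.8% of their reads were also listed under other amino acids.

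**Figure D5:**
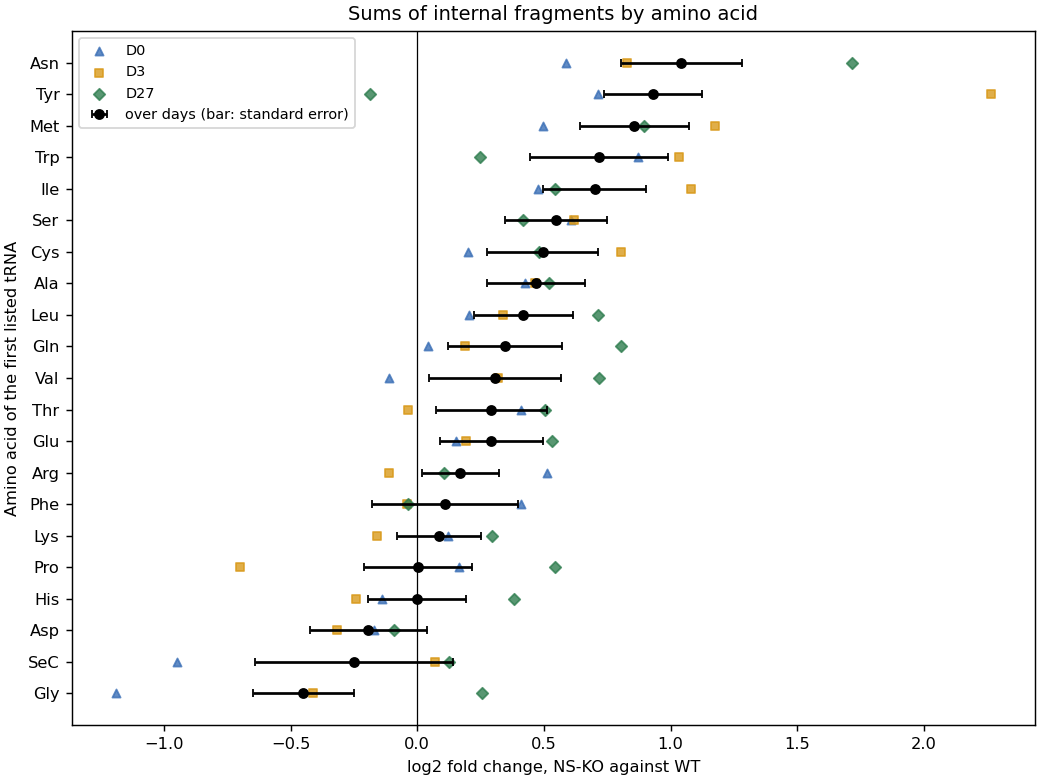
Log2 fold change of NS-KO against WT (horizontal axis) of internal fragments summed by amino acid (vertical axis), over days (black points, with bars of 1 standard error) and at D0, D3 and D27 (coloured points without error bars). Asn, Tyr, Met, Ile and Ser passed the threshold over days, and the D3 value of Tyr, 2.26, lies apart from its values at D0 and D27.

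At single days fewer members were called. At D0 4 members were lower and 0 higher (limma, 31 higher at an unadjusted p under 0.05), where 0.686% and 0.729% of all position sums were called (1.41% in either direction). The 4 were Gly 14-27, Gly 16-30, Gly 8-21 and Gly 19-37. At D3 14 were higher and 17 lower, where 29.1% and 3.56% of all position sums were called. At D27 4 were higher and 0 lower (limma, 18 lower at an unadjusted p under 0.05), where 0.3% and 0.429% were called.

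After CCl4, WT livers showed no member that was called. From D0 to D3 and from D0 to D27, 0 of 565 members and 0 of all position sums were called in limma, with 44 and 30 members at an unadjusted p under 0.05. In NS-KO livers 17 members were higher and 3 lower at D3 than at D0, where 25.8% and 1.63% of all position sums were called, and 1 was higher and 1 lower at D27 than at D0, where 0.257% and 0.429% were called. Tyr 13-36, Tyr 13-30, Gly 16-30, Gly 16-31 and Tyr 13-31 had the lowest adjusted p at D3. At D27 Lys 20-35 was higher and Tyr 12-31 lower than at D0. The sums of Tyr at D3 (log2 fold change 1.82, limma adjusted p = 0.00121, 19.7% of all sums higher and 2.19% lower) and of Gly at D27 (1.56, adjusted p = 0.0447, 0.73% higher) were the only ones called in NS-KO livers.

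The change from D0 to D3 differed between genotypes for 10 members in limma, 6 with a more positive and 4 with a more negative change in NS-KO livers, where 20.5% and 0.857% of all position sums were called. Gly 16-30 had 310 and 356 scaled CPM in WT livers at D0 and 293 and 176 at D3. In NS-KO livers it had 59.5 and 0 at D0 and 292 and 246 at D3. It thus reached the WT level at D3 from a lower level at D0, and the interaction was 3.51 on the log2 scale (adjusted p = 0.00518). With 0 scaled CPM in NS-KO D0 replicate 2, the size of this value depends on the prior count. In Pro 8-30 and Pro 8-31, pieces of Pro-AGG, the interaction was negative, at -2.55 and -2.52 (adjusted p of 0.0271 and 0.0205). For D27 no member was called in limma (62 at an unadjusted p under 0.05).

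The share of tRNA reads and both ratios were also compared between days within genotypes, where the exact permutation test cannot give a p below 0.0556. From D0 to D27 the share changed by 0.57 points in WT and 4.86 points in NS-KO livers (exact permutation p = 0.167 for their mean). From D0 to D3 it changed by 3.39 points in WT, where WT D3 replicate 1 had 8.65%, and by -2.59 points in NS-KO livers (exact permutation p = 0.889).

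At the level of single sequences, 21 of 4556 tested internal fragments were higher and 31 lower over days (limma), where 3.81% and 2.23% of all 22065 tested sequences were called. Gly again led, with 7 higher and 23 lower, and His had 1 higher and 5 lower. Tyr had 4 higher and 0 lower. The main sequence of Gly 14-27, printed above, had 357 reads and a log2 fold change of -2.83 ± 0.51 (SE, adjusted p = 0.0106), and that of His 4-31 a log2 fold change of -1.63 ± 0.31 (adjusted p = 0.0138). These counts moved with most libraries left out, from 0 to 1142 higher (without WT D0 replicate 2 and without NS-KO D27 replicate 2) and from 12 to 67 lower (without WT D0 replicate 1 and without NS-KO D27 replicate 2).

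NS-KO libraries held on average somewhat more distinct sequences of internal fragments at equal depth, mismatched ones included. Thinned to 3727 reads of the class in each library, WT libraries held 1759 ± 122 distinct sequences and NS-KO libraries 1964 ± 178 (SD, n = 6 each), a difference of 204 (exact permutation p = 0.0370). The daily differences were 26.5 (D0), 195 (D3) and 392 (D27). The genotypes overlapped, with 1900 and 1902 in the WT D0 libraries and 1654 in NS-KO D3 replicate 2. Of the 16506 sequences of the class, 11459 carried a mismatch and 10512 had 1 read in all. The thinned count was not repeated with perfect matches only or with single libraries left out. Without thinning the difference was 415 (exact permutation p = 0.509), with depths that differed between libraries.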

How the data were processed

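The deposited table lists each read sequence under every tRNA it matched, with whole-number read counts for each of 12 libraries. According to the labels and the methods, the authors checked reads with FastQC, trimmed them with cutadapt, aligned them with Bowtie to mature and then precursor tRNAs (versions not given in the sources used here) and compared groups with edgeR. The deposited columns were entered as unit other because text lines interrupt them, so limma was run and no count model. Each sequence was counted once. The members and lists were chosen with earlier results of these data known.

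Sums were kept at a mean CPM of 20 or more and sequences where any library reached 20 CPM, and these were fitted in limma 3.58.1 (R 4.3.3) on log2 CPM with TMM factors (0.509 to 1.85), a prior count of 2, a trend and 1 mean per group, with Benjamini-Hochberg adjustment over the whole table. "Over days" is the mean of the 3 daily differences. Shares and ratios were tested by exact permutation in Python 3.11.15. In simulated position sums over days, 17% of 2-fold and 65% of 4-fold changes were recovered, with 5 of 87 calls false, and at D3 0% and 8%. The named members are the 12 with the highest mean CPM, the 8 with the lowest adjusted p in each direction over days, and up to 5 for each other contrast. Sequences are from the deposited table, and gene positions from RefSeq on GRCm38. The whole sequence of 1 tRNA is not reported here. Intervals and limits cover counting error only, since reads carry no molecular identifiers.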

Additional observations from a re-analysis of the deposited data

Results flagged for a closer look

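In 11 results the change from D0 to D3 differed between NS-KO and WT livers by the interaction term of limma, given on the log2 scale as the change in NS-KO livers minus that in WT livers. It was more positive in NS-KO livers for the Tyr sum (1.55), Tyr 13-36 (2.80), Tyr 13-30 (3.38), Tyr 13-31 (2.34), Tyr 26-63 (2.02), Gly 16-30 (3.51) and Gly 16-31 (1.71). It was more negative for Pro 8-31 (-2.52), Pro 8-30 (-2.55), Arg 12-30 (-2.21) and Arg 28-55 (-2.18). The adjusted p lay between 0.00208 (Tyr 13-36) and 0.0447 (the Tyr sum). Each rests on 2 libraries per group, and several on few reads in a group, such as 2 and 5 reads of Tyr 13-30 in the WT D0 libraries. Gly 16-30 had no reads in NS-KO D0 replicate 2, so its size depends on the prior count.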

How the results depend on the processing

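The counts in this section stand without the shares over all sums or sequences at the same settings, which are not given. By library size only, 246 members were higher and 11 lower over days, and per reads outside nuclear 5′ fragments 21 and 83. A prior count of 0.5 gave 30 higher, a filter of at least 10 reads 83, a mean CPM of at least 50 gave 26, perfect matches only 23, and without D3 1 higher and 5 lower. Without a single library 26 to 78 were higher (26 without WT D0 replicate 2, 28 without NS-KO D0 replicate 1, 31 without NS-KO D27 replicate 2, 32 without WT D27 replicate 2 or NS-KO D3 replicate 1) and 26 to 40 lower (26 without NS-KO D3 replicate 2). Amino acid sums gave 18 higher by library size only, 1 higher and 2 lower per reads outside 5′ fragments, 1 higher without D3 (chosen after seeing the data), and 3 to 10 higher and 0 to 1 lower without a single library (3 without WT D0 replicate 1, 10 without NS-KO D3 replicate 2). Single sequences gave 108 higher and 5 lower by library size only, 330 and 77 with voom weights, and 0 to 1142 and 12 to 67 without a single library. The share of tRNA reads differed by 4.28 points with perfect matches only, by -1.57 per reads outside 5′ fragments and by 4.01 to 5.45 without a single library, and the unthinned number of sequences by 415. Without a single library the log2 ratio to 5′ fragments differed by 2.06 to 2.64 and that to later internal fragments by 0.37 to 0.43, and the shares ending before and past the loop by -6.79 to -4.17 and 4.38 to 5.81. Signs also turned. By library size only, Glu 16-32 was 0.26, Arg 15-31 0.80 (adjusted p = 0.0407), Arg 15-28 0.49, Glu 14-32 0.63, Gln 26-40 0.56, Ala 3-16 0.26 and the Gly sum 0.43. Per reads outside 5′ fragments, Arg 16-31 was -0.11, Glu 16-30 -0.036, Gly 16-31 -0.44 and the sums of Arg -0.28, Glu -0.16, His -0.45 and Lys -0.36. Gly 16-31 was -0.0053 with a prior count of 0.5 and -0.37 without D3, Arg 15-31 0.16 without D3 and 0.13 with perfect matches, the His sum -0.058 with perfect matches and 0 with a prior count of 0.5, Glu 14-32 0.37 under 1 amino acid and Gln 26-40 0.47 without miRNA hairpins (both chosen after seeing the data). Without a single library Gly 16-31 ran from -0.16 to 0.17, Arg 15-31 from -0.15 to 0.035, the His sum from -0.13 to 0.13, the share ending in the loop from -0.44 to 1.21 and that of the 10 most abundant sequences from -0.85 to 0.21. Of these turned values, Arg 15-31 by library size only was past the threshold, and Glu 16-32 had been past it before. Among 70 further results computed but not described, 26 changed sign in 71 of 1042 alternative values, 0 of them past the threshold. The cause was not tested.

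Deviations of replicates of the same number had correlations of -0.17 to 0.36 between groups, 2 of 15 above 0.1. With 2 libraries per group, low correlations cannot exclude a pairing. Whether the numbers pair the libraries was not tested. A replicate block gave 55 higher and 39 lower members, 6 and 0 amino acid sums, and 13 higher and 27 lower single sequences, and among the results described it ended the call of the Ser sum alone (adjusted p = 0.0507). With 2 libraries per group, and with 3 reads equal to 10.9 to 63.9 CPM across libraries, rare members have little precision.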
